A study of Mus musculus with 4 samples.

Results

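The GATA transcription factors Gata2, Gata3, Gata4, Gata5 and Gata6 were followed in single cells of day 6 embryoid bodies (EBs), the aggregates in which mouse embryonic stem cells (ESCs) differentiate without directing signals. These 5 genes were taken by symbol from the 25209 genes listed for each library, and all 5 were among the 18454 genes seen in at least 10 cells. The tested EBs, LSD1KO, came from ESCs in which the promoter and first exon of Kdm1a, the gene of the histone demethylase LSD1, had been removed by CRISPR/Cas9, and the control EBs, WT, came from WT ESCs. Each genotype was sampled as 2 replicates, which the study calls biological, and each replicate was 1 droplet library that reads transcript 3′ ends, so n = 2 libraries per genotype throughout. Both genotypes were grown as hanging drops in serum medium for 6 days, and the labels do not say whether the LSD1KO replicates were 1 clone. The comparison asks how the GATA factors, which mark and drive the lineages that EBs form, stood in EBs without LSD1.

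GATA factors bind DNA at a short motif with GATA at its core through a pair of zinc fingers. In mouse development Gata2 is needed for blood and endothelial progenitors, Gata3 acts in trophoblast, surface ectoderm, neural tissue and T cells, and Gata4, Gata5 and Gata6 share roles in heart mesoderm and endoderm. Gata6 and Gata4 stand at the head of the network that makes extraembryonic endoderm, and both work in cardiac progenitors with partner proteins such as FOG1, FOG2 and the T-box factors.

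The members are spread over several chromosomes of mm9 (NCBIM37, positions from GENCODE M1). Gata2 lies on chromosome 6 from 88143885 to 88157024 on the plus strand, and Gata4 on chromosome 14 from 63817759 to 63890529 on the minus strand. Gata3 (9778705 to 9811661) and Gata5 (180059838 to 180069404) lie far apart on chromosome 2, both on the minus strand. The lengths of DNA just upstream of the start sites are shown for the members that were matched in RefSeq (GRCm38.p6, 3 of the 5 genes), with their count of CG dinucleotides. Whether this count has a part in the differences between genotypes was not tested. Each is the 250 bases before an annotated start, 5′ to 3′ on the gene's strand, with every CG in capitals. The Gata2 windows are at chr6:88193641-88193890 and chr6:88198414-88198663, the Gata3 window at chr2:9878601-9878850 and the Gata5 window at chr2:180334680-180334929.
Gata2 upstream start: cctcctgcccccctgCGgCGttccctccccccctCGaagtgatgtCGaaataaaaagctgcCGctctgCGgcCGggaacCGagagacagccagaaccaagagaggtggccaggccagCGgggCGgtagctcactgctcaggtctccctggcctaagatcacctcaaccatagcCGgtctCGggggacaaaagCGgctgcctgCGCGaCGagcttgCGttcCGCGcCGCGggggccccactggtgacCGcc
Gata2 downstream start: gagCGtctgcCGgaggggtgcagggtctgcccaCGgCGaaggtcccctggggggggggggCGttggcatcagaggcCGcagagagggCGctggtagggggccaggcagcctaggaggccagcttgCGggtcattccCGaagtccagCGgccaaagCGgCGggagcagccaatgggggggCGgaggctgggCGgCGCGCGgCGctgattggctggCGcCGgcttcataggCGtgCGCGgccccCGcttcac
Gata3: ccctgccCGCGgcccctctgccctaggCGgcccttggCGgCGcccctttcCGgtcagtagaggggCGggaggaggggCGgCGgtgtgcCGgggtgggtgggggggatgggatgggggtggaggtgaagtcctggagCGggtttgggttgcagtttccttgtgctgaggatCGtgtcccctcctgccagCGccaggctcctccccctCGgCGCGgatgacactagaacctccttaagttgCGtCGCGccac
Gata5: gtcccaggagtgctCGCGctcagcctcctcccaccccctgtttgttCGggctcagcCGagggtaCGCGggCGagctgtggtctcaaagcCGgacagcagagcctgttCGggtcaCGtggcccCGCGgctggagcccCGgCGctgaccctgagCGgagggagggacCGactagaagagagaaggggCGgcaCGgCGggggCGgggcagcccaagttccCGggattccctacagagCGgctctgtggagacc
The upstream and downstream Gata2 windows held 22 and 24 CG dinucleotides, the Gata3 window 19 and the Gata5 window 22, against a median of 6 over 32851 RefSeq windows of the same length. Between 80.3% and 88.0% of all windows held fewer. A GATA motif on either strand, which means AGATAA or its close variant AGATAG, or else TGATAA or its close variant TGATAG, was found in 26.5% of all windows and in 0 of these 4. With the 50 bases after the start added, the Gata3 window held 1, and 29.8% of all such windows held at least 1. The 3′ tags counted here do not tell which Gata2 start was used.

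Library totals were 72285943 to 75406512 UMIs (unique molecular identifiers, 1 per captured transcript). A barcode was taken as a cell from 500 UMIs and 500 genes on, 3045 to 6828 per library and 19959 in all, with median depths of 9211 to 20304 UMIs. The deepest cells were those of LSD1KO replicate 2. Kdm1a stood at 1.10 and 0.81 CPM in LSD1KO libraries and at 221 and 246 CPM in WT libraries, read at the 3′ end, which lies outside the deleted part. Libraries shared 3 to 15 cell barcodes pairwise, at most 0.263% of either library. Free RNA, read from barcodes of at most 100 UMIs, is given below with the results inside gates.

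All 5 GATA factors were lower in LSD1KO EBs when the UMIs of all cells were summed per library. The CPM values of whole EBs are UMI counts per 1000000, scaled with edgeR's TMM factors, and a gene was called at an adjusted p under 0.05 in edgeR's quasi-likelihood test. In that test 21.6% of 16953 genes were called lower and 22.6% higher in LSD1KO EBs. With library totals in place of TMM factors the split was 2583 lower and 4839 higher, against 3661 and 3839, and all 5 factors were still called lower. In such sums, fewer cells of a type and less RNA per cell cannot be told apart.

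Gata4, a regulator of heart and endoderm, had 9.62 and 8.51 CPM in LSD1KO libraries, against 52.8 and 45.7 CPM in WT libraries. The genotypes did not overlap and the replicates lay close together. In log2 units LSD1KO stood at −2.44 relative to WT (standard error 0.13, adjusted p = 0.000488, edgeR). Gata5, the member best known from heart and endoderm of fish and mouse, had 2 and 7 UMIs in LSD1KO libraries, against 147 and 143 UMIs in WT libraries. It was nearly absent from LSD1KO cells, and was sparse in WT cells too. Its UMI share of all UMIs was 31.8-fold lower in LSD1KO EBs, with an exact 95% interval of 16.5 to 70.1 that covers counting error only, and edgeR called it at an adjusted p of 0.0015.

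Gata3, which is active in trophoblast and ectoderm, had 4.12 and 2.23 CPM in LSD1KO libraries, against 25.4 and 22.7 CPM in WT libraries (log2 fold change −2.92, standard error 0.30, adjusted p = 0.00171, edgeR). Gata2, the blood and endothelial member, had 2.39 and 1.33 CPM in LSD1KO libraries, against 7.86 and 4.54 CPM in WT libraries (log2 fold change −1.73, standard error 0.39, adjusted p = 0.0178, edgeR). For both genes each LSD1KO library lay below each WT library, with the smaller gap for Gata2. Without WT replicate 1, Gata2 had a log2 fold change of −1.28 and an adjusted p of 0.0704.

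Gata6, a leading factor of endoderm and cardiac mesoderm, sits on the plus strand of chromosome 18 (mm9, 11052508 to 11085633). It had 18.1 and 2.996 CPM in LSD1KO libraries, against 76.9 and 62.6 CPM in WT libraries. Gata6 was lower in both LSD1KO libraries, but these differed more from each other than the WT libraries did. In log2 units the change was −2.72 (standard error 0.75, adjusted p = 0.0333, edgeR). Left-out libraries moved this value. It was −4.54 without LSD1KO replicate 1 (adjusted p = 7.08e-05) and −1.94 without LSD1KO replicate 2 (adjusted p = 0.000553). It was no longer called once WT replicate 1 (adjusted p = 0.0957) or WT replicate 2 (adjusted p = 0.0665) was left out. Gata6os, the noncoding gene beside Gata6, was lower as well, with 0.24 and 0.02 CPM in LSD1KO libraries, against 3.46 and 1.91 CPM in WT libraries (adjusted p = 0.00971).

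**Figure D1:**
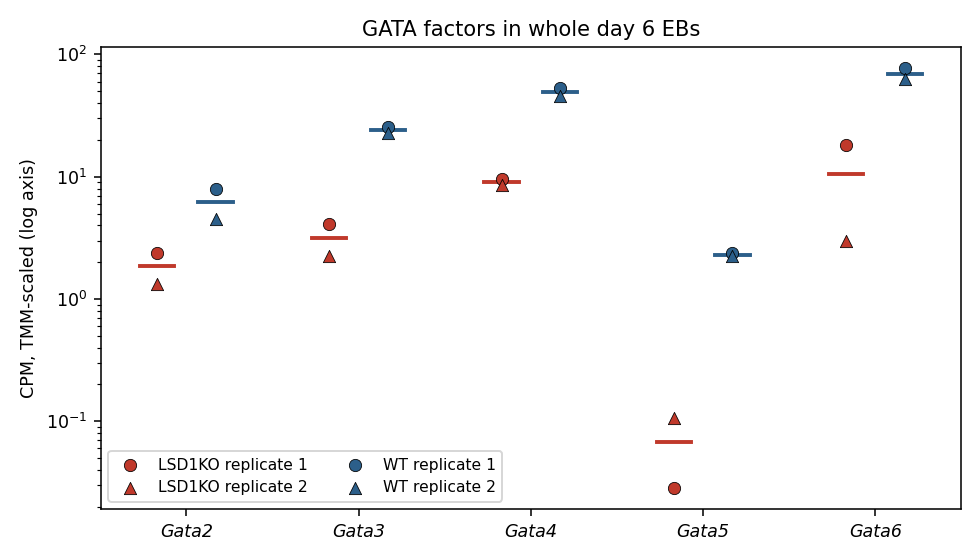
TMM-scaled CPM of the 5 GATA factors in each library on a log axis, LSD1KO left of WT for each gene; points are libraries and bars are means of 2. All 5 genes were called lower in LSD1KO EBs by edgeR, as were 21.6% of 16953 genes. Gata6 shows the widest gap between LSD1KO replicates in CPM (18.1 and 2.996).

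To ask which cells carried each factor, cells were sorted by marker genes into 11 gates. A cell joined the gate whose list had the largest share of its markers detected, provided that at least 3 markers had a UMI and that no other list tied. No GATA factor described here was among the markers. The gates held 63.7% and 60.2% of LSD1KO cells and 49.0% and 45.8% of WT cells. WT EBs held cells of most gates, among them visceral endoderm (226 and 150 cells), cardiac (884 and 1115), endothelial (144 and 145) and epithelial (468 and 465) cells. In LSD1KO EBs most gated cells were in the ESC (1408 and 1019 cells), neural (885 and 591) and streak (1232 and 166) gates, and the cardiac gate held 2 and 0 cells. Lists tied in 498 and 348 LSD1KO cells and in 14 and 29 WT cells, which joined no gate.

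In WT EBs the GATA factors differed in level between gates, and some shared gates, with Gata4 and Gata6 both called higher in visceral endoderm, cardiac and streak cells. For these levels UMIs were summed over the cells of a gate in each library and divided by all UMIs of those cells, with no TMM factor. Each of the 9 gates with at least 30 cells in both WT libraries was tested in edgeR against the mean of the other 8, with library as a term. Both WT libraries supply all gates, so the tests measure spread between gates of 2 libraries. Free RNA of the WT libraries had 64.0 and 47.5 CPM of Gata6, 45.0 and 26.6 CPM of Gata4, 25.6 and 16.5 CPM of Gata3, 5.78 and 4.68 CPM of Gata2 and 2.89 and 2.71 CPM of Gata5, and its part in the gate levels was not tested.

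Gata4 was highest in visceral endoderm, the extraembryonic layer that produces serum proteins such as transthyretin, at 155 and 132 CPM (log2 difference from the other gates 2.91, standard error 0.16, adjusted p = 2.66e-11). It followed in the cardiac gate at 57.3 and 84.0 CPM (1.65, standard error 0.15, adjusted p = 7.25e-08) and in the streak gate at 78.0 and 58.1 CPM (1.57, standard error 0.22, adjusted p = 9.22e-05). The cardiac and streak gates overlapped in their levels. Mesenchyme, epithelial and endothelial cells lay between 18.2 and 30.9 CPM, without order beyond their spread. The ESC, neural and forebrain gates lay at 13.0 CPM or less, and Gata4 was called lower in these 3 gates, in forebrain with 3 markers only (adjusted p = 0.0958 with 4).

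Gata6 was highest in the cardiac gate at 131 and 126 CPM (log2 difference 1.96, standard error 0.09, adjusted p = 1.11e-12) and in visceral endoderm at 116 and 118 CPM (1.89, standard error 0.10, adjusted p = 2.12e-11). The streak gate followed at 69.7 and 61.1 CPM and the endothelial gate at 57.5 and 59.8 CPM, both called higher than the mean of the other gates (adjusted p = 0.000308 and 0.000184). With 4 markers asked for instead of 3, the endothelial value fell short of a call (0.44, adjusted p = 0.0986). Below these lay the epithelial gate at 50.7 and 36.1 CPM, mesenchyme at 32.1 and 39.1 CPM and forebrain at 25.0 and 24.0 CPM. Epithelial and mesenchyme cells overlapped. The ESC gate, at 12.7 and 10.0 CPM, and the neural gate, at 7.71 and 8.37 CPM, were the lowest of the tested gates, and the small blood gate had 1 and 2 Gata6 UMIs (4.04 and 9.91 CPM).

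Gata5 transcripts lay mostly in cardiac cells. The cardiac gate held 130 of 147 and 116 of 143 Gata5 UMIs of the WT libraries, which is 88.4% and 81.1%, although the gate held 23.7% and 16.9% of all UMIs. Its level there was 8.66 and 9.98 CPM (log2 difference 5.83, standard error 0.44, adjusted p = 2.35e-08). The mesenchyme gate had 0.71 and 1.57 CPM, below the free RNA, and 0 UMIs were seen in the ESC, neural and forebrain gates of either WT library.

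Gata2 was highest where blood vessels and blood were marked. The endothelial gate had 39.0 and 34.7 CPM (log2 difference 3.83, standard error 0.20, adjusted p = 1.22e-11). The blood gate, with 17 and 15 cells too small for the test, had 14 and 10 UMIs, or 56.6 and 49.5 CPM, and its exact intervals overlapped those of the endothelial gate. Beyond these, Gata2 was called higher in epithelial cells (11.02 and 9.29 CPM) and in visceral endoderm (8.54 and 5.09 CPM), at adjusted p values of 1.88e-06 and 0.00181.

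Gata3 reached 44.9 and 32.6 CPM in visceral endoderm (log2 difference 1.62, standard error 0.18, adjusted p = 5.13e-07), 30.2 and 27.6 CPM in epithelial cells (1.10, standard error 0.16, adjusted p = 2.65e-05) and 26.5 and 33.0 CPM in the forebrain gate (1.12, standard error 0.22, adjusted p = 0.00144). The range of the forebrain gate overlapped those of both others, and its lower value was close to the higher one of free RNA (25.6 CPM). The forebrain call was lost with 4 markers asked for (adjusted p = 0.0843). The epithelial gate is one of keratin and claudin genes, and Gata2 and Gata3 were both called higher there and in visceral endoderm. Of all Gata3 UMIs, 33.5% and 58.4% lay in WT cells that no gate took, the largest such share among the 5 genes in both WT libraries. Those cells held 28.3% and 44.6% of all UMIs.

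Counted by gate, 4 of the 5 GATA factors were called higher in visceral endoderm, where 21% of 12442 genes were, and 3 in the cardiac gate, where 16% of genes were. The epithelial (16.5% of genes), endothelial (18.9%) and streak (5.09%) gates had 2 each, and the forebrain gate (8.82%) had 1. Mesenchyme (10.4%), ESC (18.9%) and neural (9.45%) gates had 0 by edgeR, with 1 (Gata5), 0 and 0 at an unadjusted p under 0.05. Lower calls were 4 of 5 in the ESC gate (16.2% of genes), 4 in neural (7.99%), 3 in forebrain (5.59%) and 2 in mesenchyme (9.28%), of which 3, 2, 0 and 1 were kept with 4 markers asked for.

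**Figure D2:**
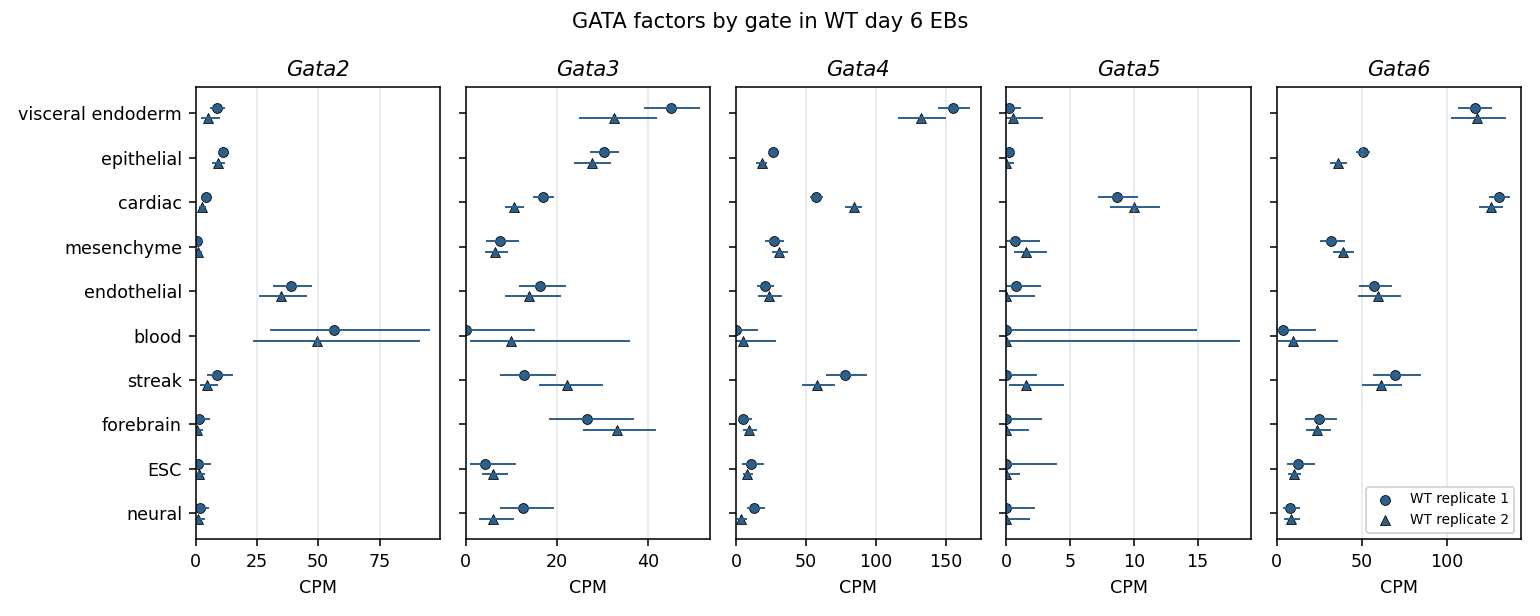
CPM of each GATA factor by gate in WT EBs, without TMM scaling; circles and triangles are WT replicates 1 and 2 and lines are exact 95% Poisson intervals. Gata5 is highest in the cardiac gate (8.66 and 9.98 CPM), Gata2 peaks in the endothelial and blood gates, and Gata4 and Gata6 are both high in visceral endoderm and cardiac cells.

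In LSD1KO EBs the gates in which WT cells held most GATA UMIs were almost empty, and the remaining transcripts sat in other cells. Of the Gata6 UMIs of LSD1KO cells, 93.8% and 66.3% lay in the streak gate, which holds cells with primitive streak markers such as T, Mixl1 and Eomes. In WT cells the same gate held 2.3% and 3.0% of Gata6 UMIs. Of all UMIs, the streak gate held 27.1% and 7.4% in LSD1KO libraries and 2.5% and 2.9% in WT libraries. The streak gate took 21.6% of the cells of LSD1KO replicate 1 and 5.45% of the cells of replicate 2, against 1.64% and 2.24% of WT cells, so that the replicates that differed in Gata6 also differed in streak cells.

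When streak-gated cells were left out of all libraries, a step chosen after these values were seen, Gata6 had 1.56 and 1.09 CPM in LSD1KO libraries, against 76.9 and 62.5 CPM in WT libraries. The LSD1KO replicates then lay close together, and Gata6 stood at −5.73 in log2 units (standard error 0.21, adjusted p = 0.000169, edgeR), over −2.72 with all cells. This gate held most Gata6 UMIs of LSD1KO cells and few of WT cells. A larger Gata6 fall was thus fixed by the choice of the step, and its adjusted p adds no support. Gata3 was at −3.46 in the same fit, and Gata2, Gata4 and Gata5 moved by less than 0.13 on the log2 scale.

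Gata4 UMIs of LSD1KO cells were spread more widely. The streak, ESC and neural gates held 40.4%, 21.9% and 17.6% of them in replicate 1 and 7.0%, 40.9% and 25.0% in replicate 2. Of all UMIs, the same gates held 27.1%, 28.4% and 21.1% in replicate 1 and 7.4%, 40.3% and 29.5% in replicate 2. In CPM these gates had 15.1 and 8.31, 7.84 and 8.98, and 8.48 and 7.49 in LSD1KO libraries, and cells without a gate had 8.88 and 8.53 CPM. Free RNA of these libraries had 9.15 and 5.51 CPM of Gata4, from 19 and 18 UMIs, and its part in these levels was not tested. Gata5 left 9 UMIs in all LSD1KO cells.

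**Figure D3:**
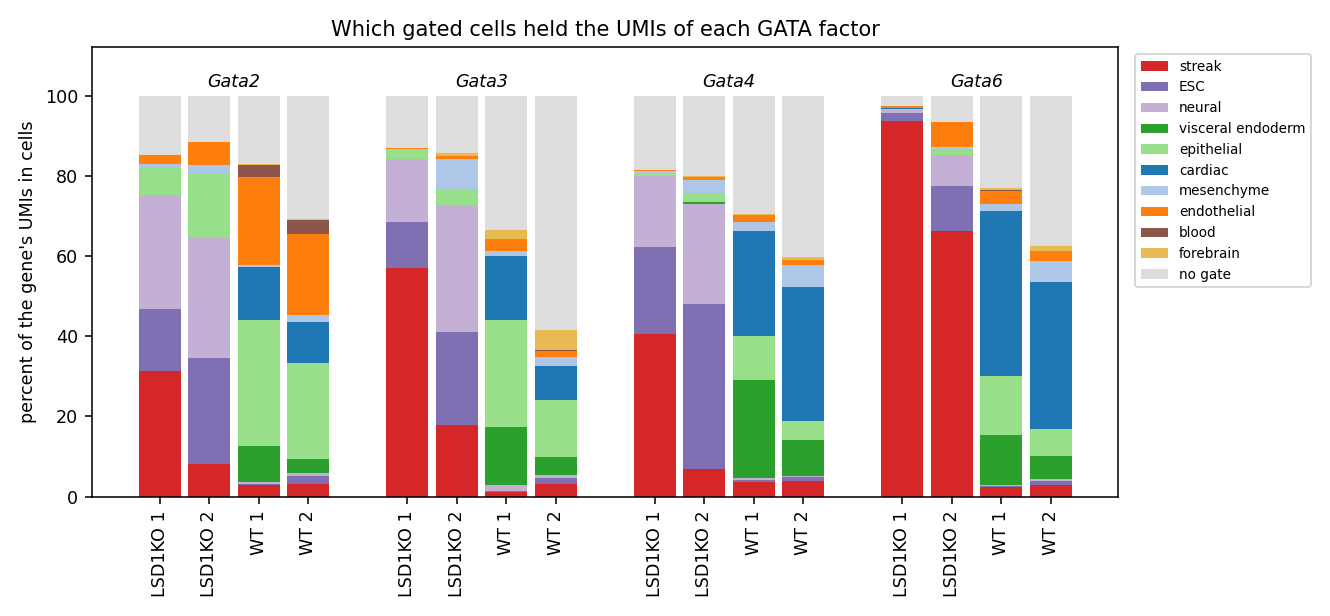
Share of the UMIs of Gata2, Gata3, Gata4 and Gata6 that lay in each gate, in percent, 1 bar per library with LSD1KO left of WT within each gene. Gata6 UMIs of LSD1KO cells lie mostly in the streak gate (93.8% and 66.3%), while in WT cells the cardiac gate holds the most of the gates (41.1% and 36.7%). Of all UMIs, these gates hold 27.1% and 7.4% in LSD1KO and 23.7% and 16.9% in WT libraries.

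The few LSD1KO cells in the endothelial and epithelial gates did carry GATA transcripts. In the endothelial gate, with 17 and 9 LSD1KO cells, Gata2 had 4 and 5 UMIs (19.0 and 23.2 CPM), against 39.0 and 34.7 CPM in WT cells, and Gata6 had 5 and 12 UMIs (23.8 and 55.8 CPM), against 57.5 and 59.8 CPM in WT cells. In the epithelial gate, with 50 and 21 LSD1KO cells, Gata2 had 12 and 14 UMIs (16.7 and 29.97 CPM), against 11.02 and 9.29 CPM in WT cells. These gates held under 30 cells in an LSD1KO library, so no test was made. Gata2 was above the WT levels in the epithelial gate and below them in the endothelial gate. Its exact counting intervals reached over both WT values in the endothelial gate (5.18 to 48.7 and 7.55 to 54.2 CPM) and, in LSD1KO replicate 1, in the epithelial gate (8.63 to 29.2 CPM).

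Only the streak, ESC and neural gates held at least 30 cells in all 4 libraries, and only there were genotypes compared inside a gate. Gata5 had too few counts for the test in each. CPM values of the GATA factors inside a gate are TMM-scaled, and those of markers are not. The gated cells differed between genotypes in some of the markers. Of the 8 streak markers T was at 526 and 335 CPM in LSD1KO cells and at 67.2 and 81.9 CPM in WT cells, and Lefty2, Mixl1, Eomes and Fgf8 were likewise higher in both LSD1KO libraries, while Mesp1, Evx1 and Gsc overlapped between genotypes. Mesp1, for example, was at 89.99 and 35.6 CPM in LSD1KO cells and at 46.9 and 85.9 CPM in WT cells. Of the streak-gated cells, 216 of 1232 and 22 of 166 LSD1KO cells and 43 of 72 and 110 of 153 WT cells had just the minimum of 3 markers. ESC markers differed in both directions, most of them lower in LSD1KO cells. Zfp42, Klf2, Dppa5a, Utf1, Fgf4, Esrrb and Tcl1 were lower in both LSD1KO libraries than in both WT libraries. Klf2, for example, was at 26.2 and 32.3 CPM in LSD1KO and 123 and 246 CPM in WT cells. Tdgf1 was higher, at 451 and 420 CPM in LSD1KO and 70.9 and 64.0 CPM in WT cells, and so was Pou5f1. Nanog overlapped. Of neural markers, Nes, Sox3, Nefl, Nefm, Tubb3 and Zic1 were higher in both LSD1KO libraries. Nefm was at 125 and 67.0 CPM in LSD1KO and 18.4 and 22.2 CPM in WT cells. Sox1 was lower, at 11.9 and 20.2 against 69.4 and 86.1 CPM. Pou3f1, Pax6 and Fabp7 overlapped. Against the other cells of their genotype, 2 of 10 neural markers were at least 2-fold higher in neural-gated LSD1KO cells and 9 of 10 in WT cells. For ESC markers these counts were 5 of 10 and 10 of 10, and for streak markers 8 of 8 in both. The part of marker differences in the results inside gates was not tested.

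Inside the streak gate Gata4 and Gata6 parted. Gata4 had 14.2 and 8.01 CPM in LSD1KO cells, against 82.8 and 61.6 CPM in WT cells (log2 fold change −2.58, standard error 0.26, adjusted p = 0.000157, edgeR). Gata6 had 62.0 and 26.7 CPM in LSD1KO cells, against 74.1 and 64.8 CPM in WT cells (log2 fold change −0.55, standard error 0.33, adjusted p = 0.243, edgeR). Gata6 thus stood just below the WT range in LSD1KO replicate 1 and further below it in replicate 2, and without LSD1KO replicate 1 it was called lower (−1.36, adjusted p = 1.56e-05). Gata3 and Gata2 were called lower in this gate too, at −1.35 and −1.56 (adjusted p = 0.0163 and 0.0422), but with 4 markers asked for neither was called (adjusted p = 0.0514 and 0.0937). Gata3 also lost its call without WT replicate 2 (adjusted p = 0.163), and Gata2 without LSD1KO replicate 1, LSD1KO replicate 2 or WT replicate 1 (adjusted p = 0.0906, 0.244 and 0.312). In all 3 of 4 tested members were called, where 28.8% of 11831 genes were called in either direction.

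Inside the ESC and neural gates the order was the other way round. In the ESC gate Gata6 had 1.26 and 0.87 CPM in LSD1KO cells, against 12.2 and 10.46 CPM in WT cells (log2 fold change −3.38, standard error 0.38, adjusted p = 0.000706, edgeR), while Gata4 had 7.79 and 9.02 CPM in LSD1KO cells, against 10.1 and 8.25 CPM in WT cells (−0.06, standard error 0.28, adjusted p = 0.956, edgeR). In the neural gate Gata6 had 0.70 and 0.80 CPM in LSD1KO cells, against 7.73 and 8.54 CPM in WT cells (−3.41, standard error 0.44, adjusted p = 0.00228, edgeR), and Gata4 overlapped between the genotypes. Gata6 in free RNA was at 10.6 and 1.53 CPM in LSD1KO libraries and at 64.0 and 47.5 CPM in WT libraries, so the free RNA moved in the same direction as these gates, and its part in the difference was not tested. For Gata4 free RNA was lower too, with means of 7.33 CPM in LSD1KO and 35.8 CPM in WT libraries, while its levels in both gates overlapped. Gata3 was called lower in both gates, at −1.89 (adjusted p = 0.0148) in ESC and −1.69 (adjusted p = 0.0327) in neural cells, with free RNA of 3.85 and 2.45 CPM in LSD1KO and 25.6 and 16.5 CPM in WT libraries. Its ESC call was lost without LSD1KO replicate 1, LSD1KO replicate 2 or WT replicate 2 (adjusted p = 0.148, 0.209 and 0.337), and its neural call without WT replicate 1 (adjusted p = 0.238). Gata2 was not called in either gate. In each gate 2 of 4 tested members were called, where 19.7% of genes in ESC and 15.9% in neural cells were.

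The genotype effects on Gata4 and Gata6 differed between gates in a direct test of the difference, added after these values were seen. It was fitted in edgeR over the sums of the 3 gates with each library as a block. The log2 effect on Gata6 was 2.72 higher in the streak gate than in the ESC gate (standard error 0.38, adjusted p = 0.000288) and 2.70 higher than in the neural gate (standard error 0.46, adjusted p = 0.00229). The effect on Gata4 ran the other way, at −2.39 for streak minus ESC (standard error 0.38, adjusted p = 0.001) and −2.59 for streak minus neural (standard error 0.41, adjusted p = 0.00141). With 4 markers asked for, all of these 4 differences kept their direction and their call. Gata2 and Gata3 were not called in any of these comparisons (lowest adjusted p 0.0644, Gata2 for streak minus neural), and no member was called between neural and ESC. Over all genes, 10.3% of 13241 were called for streak against ESC, 6.24% for streak against neural and 4.46% for neural against ESC.

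**Figure D4:**
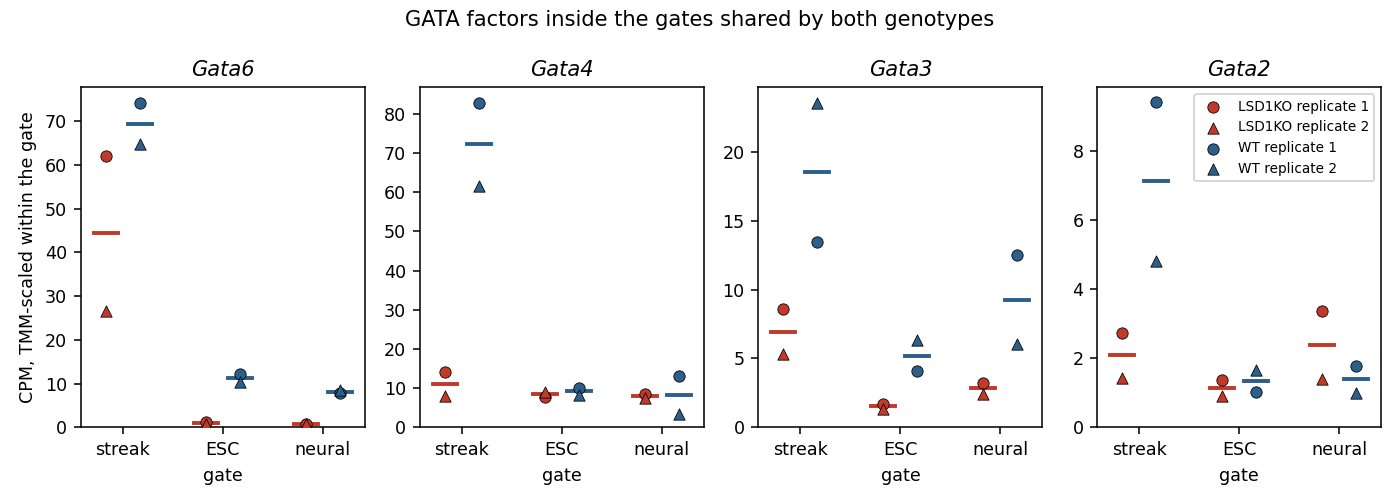
TMM-scaled CPM of Gata6, Gata4, Gata3 and Gata2 inside the 3 gates with enough cells in all libraries, LSD1KO left of WT; points are libraries and bars are means of 2. Gata4 differs between genotypes in the streak gate (14.2 and 8.01 CPM in LSD1KO, 82.8 and 61.6 CPM in WT) and overlaps in the ESC and neural gates, while Gata6 is near 1 CPM in LSD1KO cells of the ESC and neural gates.

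Shares of cells with a UMI followed the sums. Cells were thinned to 5000 UMIs each, which left out 1330 and 869 shallower LSD1KO cells and 1326 and 1161 WT cells. After thinning, Gata6 was detected in 6.10% and 1.24% of LSD1KO cells, against 29.1% and 21.6% of WT cells, and Gata4 in 4.65% and 4.50% of LSD1KO cells, against 19.3% and 16.1% of WT cells. Unthinned, these shares were 8.10% and 2.76% of LSD1KO cells, against 41.2% and 32.3% of WT cells, for Gata6, and 10.3% and 13.5% of LSD1KO cells, against 30.8% and 25.1% of WT cells, for Gata4. For comparison, the thinned share with Gata6 in the ESC gate was 0.77% and 0.43% of LSD1KO cells, against 4.35% and 2.81% of WT cells. Median depths of the ESC-gated cells before thinning were 12938.5 and 24357 UMIs in LSD1KO and 15097.5 and 11430 UMIs in WT libraries. Each library's whole-EB share of Gata6 was above that of its own ESC gate. For Gata4 the share in the ESC gate was 3.46% and 4.29% of LSD1KO cells, against 2.17% and 2.11% of WT cells. The LSD1KO shares of whole EBs were close to those of their ESC gates, and the WT shares were above theirs. The ESC gate is itself part of the EBs, with 24.7% and 33.5% of LSD1KO cells and 1.27% and 4.41% of WT cells. Its shares are thus not independent of those of whole EBs, and whether they are background was not tested. Gata5 was seen in 0 and 3 thinned LSD1KO cells, against 44 and 54 WT cells. In LSD1KO replicate 1 the count of 0 in 4363 cells has an exact 95% upper limit of 0.0845% for cells with a UMI at this depth, which does not limit the cells that express Gata5, and the same library held 2 Gata5 UMIs before thinning. A UMI of at least 1 of the 5 genes was absent from 87.2% and 92.6% of thinned LSD1KO cells, against 52.8% and 61.3% of WT cells.

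Within single WT cells Gata4 and Gata6 were often found together. In thinned WT cells both had a UMI in 262 and 341 cells, where the product of their shares would give 172 and 196. Inside single gates the counts lay closer to the product. In the cardiac gate both were seen in 103 and 153 cells, against 92.5 and 144 by the product, and in visceral endoderm in 49 and 21 cells, against 47.6 and 21.9. Leaving out the 10% of cells with the most UMIs instead of thinning, a step chosen after the data were seen, gave 736 and 777 double-positive WT cells, against 422 and 428 by the product. In LSD1KO EBs 30 and 2 thinned cells had both, against 12.4 and 1.22 by the product.

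Across the 26 sums of a gate in a library with at least 30 cells, likeness to each factor was measured as Pearson's r of log2(CPM + 5) over 9223 genes. The sums come from both genotypes and share libraries and, within a library, depth, so r is a description. A shared difference between genotypes can raise r as well as a shared pattern over gates, and these were not separated. Gata5 was most like Sphkap (r = 0.97), Tnnt2 (0.96), the cardiac troponin T gene and itself a marker of the cardiac gate, and Ttn (0.93), which encodes titin. Gata6 was most like Prdm6 (0.91), Nrp1 (0.88), which encodes a receptor for semaphorins and VEGF, and Zfpm1 (0.87), which encodes the GATA partner FOG1. Gata4 was most like Plekha6 (0.89), Tbx3 (0.87), a T-box factor gene, and Efna1 (0.87), an ephrin gene. Gata3 was most like Sox17 (0.89), an endoderm and endothelial factor gene, Cpm (0.87) and Nfkb1 (0.87), and Gata2 was most like Afap1l1 (0.90), Arpc3 (0.86) and Adgrf5 (0.86). Among the members, Gata4 and Gata6 had the highest r with each other (0.81), followed by Gata3 and Gata6 (0.73), while Gata2 and Gata5 had −0.05.

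The genes placed around GATA factors were read in the same whole-EB fit, in which all genes had a median log2 fold change of −0.00. Of 17 heart genes placed under Gata4, Gata5 and Gata6, 13 fell and 1 rose, with a median of −3.58. Myocd, a coactivator of smooth and cardiac muscle genes, had 0.24 and 0.14 CPM in LSD1KO libraries, against 22.4 and 29.7 CPM in WT libraries. Hand2, a heart and limb factor gene, had 0.24 and 0.28 CPM in LSD1KO libraries, against 35.7 and 33.3 CPM in WT libraries, and Hand1 had 2.01 and 1.02 CPM, against 165 and 96.4 CPM in WT libraries. Tnnt2 fell as well (log2 fold change −5.56, adjusted p = 0.000681, edgeR). The gene that rose was Actc1, the cardiac actin gene that other embryonic cells also use, with 37.0 and 21.2 CPM in LSD1KO libraries, against 17.1 and 12.6 CPM in WT libraries (adjusted p = 0.0419), and it was named after its value was seen.

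Of 17 endoderm genes placed under Gata4 and Gata6, 16 could be tested, 13 fell and 0 rose, also at an unadjusted p under 0.05, with a median of −2.49. Ttr, which encodes transthyretin, had 0.03 and 0.15 CPM in LSD1KO libraries, against 239 and 90.8 CPM in WT libraries. Sox17 had 1.58 and 0.58 CPM in LSD1KO libraries, against 46.4 and 44.8 CPM in WT libraries, and Foxa2, a pioneer factor gene of endoderm, had 3.75 and 1.96 CPM, against 42.2 and 51.96 CPM in WT libraries. Col4a2, a basement membrane collagen gene, fell by 3.07 on the log2 scale (adjusted p = 0.00105). Ttr is a marker of the visceral endoderm gate, and Hand1, Hand2, Tnnt2 and Tbx20 of the cardiac gate, and these gates held 0 to 2 cells in the LSD1KO libraries. The lists overlap, with Hand2, Isl1 and others in more than 1.

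Partners of GATA factors fell in 14 of 18 cases and rose in 0, also at an unadjusted p under 0.05, with a median of −0.69. Zfpm1 had 6.34 and 4.23 CPM in LSD1KO libraries, against 39.6 and 34.3 CPM in WT libraries (log2 fold change −2.80, standard error 0.22, adjusted p = 0.000894, edgeR). Zfpm2, the gene of FOG2, had 69.9 and 33.97 CPM in LSD1KO libraries, against 48.2 and 45.3 CPM in WT libraries, and was not called (adjusted p = 0.722). Zfpm2, named after its value was seen, overlapped between genotypes. Among partners of at least 20 CPM in WT libraries, Hand2, Tbx20 and Isl1, all of cardiac mesoderm, fell the furthest (log2 fold changes −7.06, −6.08 and −3.12). 

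Of 18 blood and endothelial genes placed with Gata2, 10 fell and 0 rose (2 at an unadjusted p under 0.05), with a median of −1.02. Kdr, the VEGF receptor gene of endothelial progenitors, had 4.69 and 2.57 CPM in LSD1KO libraries, against 39.2 and 33.1 CPM in WT libraries, Kit had 9.39 and 8.04 CPM, against 42.3 and 30.4 CPM in WT libraries, and Hhex, of endothelium and anterior endoderm, had 8.78 and 7.38 CPM, against 21.7 and 35.0 CPM in WT libraries. The trophoblast and surface ectoderm list placed with Gata2 and Gata3 was mixed. Of its 16 genes 12 could be tested, 5 fell and 3 rose, with a median of −0.63. Msx2 fell to 7.23 and 2.92 CPM in LSD1KO libraries, against 51.4 and 30.7 CPM in WT libraries, and Grhl2, an epithelial factor gene, fell by 1.72 on the log2 scale. Eomes, which the streak gate uses as a marker, rose to 83.7 and 30.6 CPM in LSD1KO libraries, against 9.39 and 17.4 CPM in WT libraries (log2 fold change 2.09, standard error 0.53, adjusted p = 0.0256, edgeR). The neural list placed with Gata2 and Gata3 had 11 of 13 genes tested, with 4 that fell, 2 that rose and a median of −0.74, and Isl1 was the gene with a level of at least 20 CPM among those called.

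The other genes with a zinc finger of GATA type, many of them parts of chromatin complexes, centred near 0, with a median of −0.02 and with 3 that fell and 1 that rose among 10. Trps1, a repressor gene with a GATA-type finger, rose to 69.6 and 54.9 CPM in LSD1KO libraries, against 32.6 and 32.7 CPM in WT libraries (log2 fold change 0.93, standard error 0.13, adjusted p = 0.00439, edgeR). Rere and Gatad2b fell by 0.49 and 0.45 on the log2 scale. The erythroid factor gene Gata1 was the remaining one that fell, with 18 and 30 UMIs in LSD1KO libraries, against 84 and 110 UMIs in WT libraries.

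**Figure D5:**
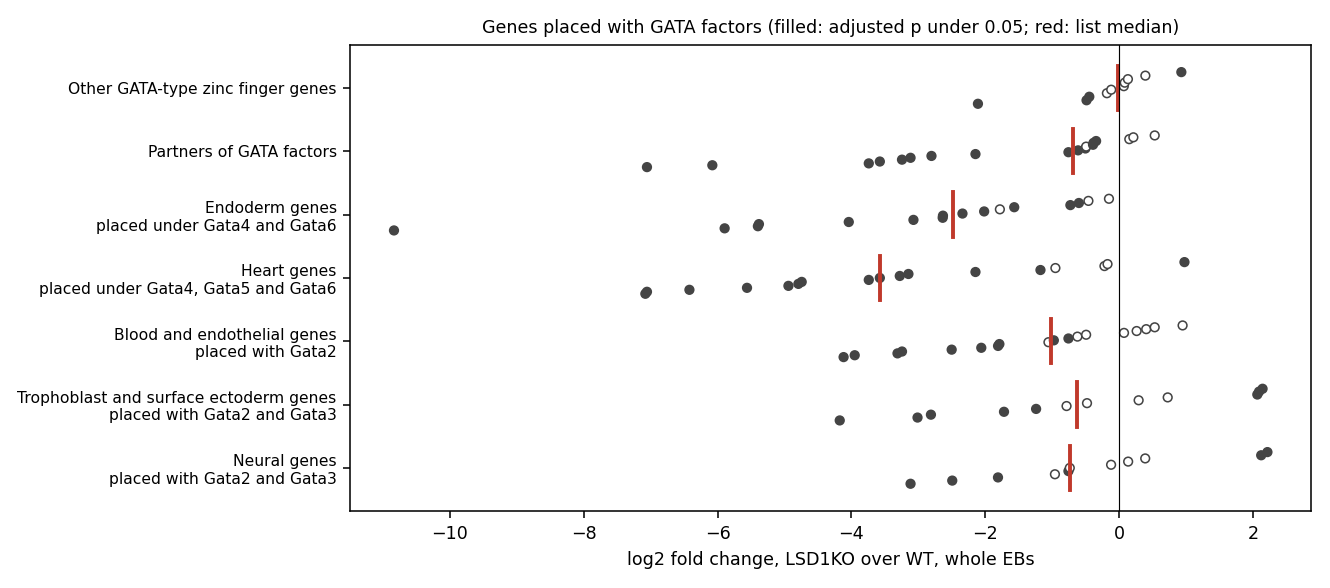
Log2 fold changes in whole EBs, LSD1KO over WT, of the genes in 7 lists placed with GATA factors; each point is a gene, filled where the adjusted p of edgeR's test was under 0.05, and red bars are list medians. The heart (median −3.58) and endoderm (−2.49) lists lie furthest to the left, and the other GATA-type genes lie around 0 (−0.02).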

How the data were processed

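Droplet libraries were made from dissociated day 6 EBs, 2 of LSD1KO and 2 of WT. Per the submitters' processing notes the authors used Cell Ranger 7.1.0 and mm9. They deposited raw UMI counts for every barcode. Seurat 4.3.0, which the study used for clusters, was not used here.

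Cells needed 500 UMIs and 500 genes and genes 10 cells, as in the study's methods. No doublets were removed. UMIs were summed per library or per gate and library, filtered with filterByExpr and tested in edgeR 4.0.16 (R 4.3.3) with TMM factors, quasi-likelihood tests and Benjamini-Hochberg adjustment over all genes. The test was checked on simulated counts. DESeq2 1.42.0 was an alternative, with others on scaling, filters, gates and left-out libraries. Gates, levels and thinning used numpy 2.4.6 and scipy 1.17.1. Intervals are exact 95% and cover counting error only. With 2 against 2 libraries p-values measure the spread between these libraries. Replicates differed by more than counting noise (chi-square per degree of freedom 29.3 in LSD1KO and 66.9 in WT). Promoter sequences are RefSeq's.

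The 5 members, the lists and the gate rule were chosen with earlier results of these data known. Beside the members, the text names the 3 genes most like each one among genes of at least 20 CPM in a gate sum, and up to 4 called genes of each list with the largest fold change and at least 20 CPM in the higher genotype. Exceptions are marked.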

Additional observations from a re-analysis of the deposited data

Results flagged for a closer look

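The effect of the LSD1KO genotype on Gata4 and Gata6 differed between gates, by the test of the difference between them. For Gata6 the log2 fold change was 2.72 higher in the streak gate than in the ESC gate (adjusted p = 0.000288, edgeR) and 2.70 higher than in the neural gate (adjusted p = 0.00229). For Gata4 the differences were −2.39 for streak minus ESC (adjusted p = 0.001) and −2.59 for streak minus neural (adjusted p = 0.00141). Of the 8 markers of the streak gate, 5 were higher in both LSD1KO libraries, among them T at 526 and 335 CPM in LSD1KO cells and at 67.2 and 81.9 CPM in WT cells. The other 3 (Mesp1, Evx1 and Gsc) overlapped between genotypes. In the ESC gate most markers were lower in both LSD1KO libraries, among them Klf2, while Tdgf1 and Pou5f1 were higher. In the neural gate most markers were higher in both LSD1KO libraries, among them Nefm, while Sox1 was lower. Mean Gata4 of LSD1KO cells was 8.41 CPM in the ESC gate and 7.98 CPM in the neural gate, against 7.33 CPM in free RNA. The part of marker differences and free RNA in these results was not tested.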

How the results depend on the processing

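The members' falls in whole EBs kept their direction under every alternative run, and all 5 were called under other scalings, filters, tests and cell cutoffs. All 5 were also called without streak-gated cells, a step chosen after the values were seen, under which a larger Gata6 fall was fixed in advance. With library totals only, the median gene stood at 0.13 on the log2 scale and 4839 genes were higher and 2583 lower, against 3839 and 3661 with TMM factors, and Gata6 was at −2.59 (adjusted p = 0.0463). Leaving out a library in turn gave 3 to 5 members called, and 4999 to 6666 genes called, against 7500. The same step gave 1 to 2 members called inside the ESC gate, 1 to 2 inside the neural gate and 2 to 3 inside the streak gate, where asking for 4 markers gave 1. Uncalled values changed sign, with Gata4 in the ESC gate at 0.35 with 4 markers and −0.25 to 0.042 on leaving out libraries, Gata2 in the ESC gate at −0.55 to 0.16, and Gata4 in the neural gate at −0.72 to 1.17. The causes of these changes were not tested, apart from the loss of samples.

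Replicate numbers are shared by the genotypes, but nothing in the sources says that a number marks a pair. Same-numbered libraries deviated together with a correlation of 0.16. With the replicate block, 5 members were called in whole EBs and Gata6 was at −3.14, while 8097 of all genes were called, against 7500 without the block. Gata6 inside the streak gate was then called (−0.71, adjusted p = 0.00873, edgeR), and Gata4 in the neural gate stood at 0.019. The number of all genes called inside the gates with the block is not given, so the Gata6 call there is not read as a result about this gene. In WT gates, asking for 4 markers ended 9 calls, 7 of them of lower levels, and gave 12 higher calls, against 14.

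Low counts limited Gata5, which had 9 UMIs in LSD1KO cells and could not be tested between genotypes inside a gate, and Gata2 inside the ESC and neural gates, at under 4 CPM in each library.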

Other observations

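Gates that were too small to test still held some GATA transcripts. The single LSD1KO cell in the visceral endoderm gate had 3 Gata4 UMIs and 0 Gata6 UMIs. In the mesenchyme gate of LSD1KO replicate 2, 24 cells held 18 Gata4 UMIs (35.4 CPM) and 11 Gata3 UMIs (21.6 CPM), while 33 cells of LSD1KO replicate 1 held 3 Gata4 UMIs (7.17 CPM) and 0 Gata3 UMIs, against 26.8 and 30.9 CPM of Gata4 and 7.50 and 6.49 CPM of Gata3 in WT mesenchyme. The LSD1KO replicates thus differed from each other in this gate by more than the WT replicates did. In the WT blood gate Gata1 had 31 and 24 UMIs in 17 and 15 cells, next to 14 and 10 UMIs of Gata2, while Gata3 had 0 and 2 UMIs and Gata6 1 and 2 UMIs.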
